A study of Mus musculus with 2 samples.

Results

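Ribosomal protein genes were compared between precancerous liver of mice with and without the histone demethylase Kdm3a, with the genes of the cytosolic ribosome set against those of the mitochondrial ribosome. Members were chosen by their annotated symbol. Symbols starting with Rpl, Rps or Rplp and a digit made up the cytosolic set, without the Rps6k kinases and symbols holding the pseudogene mark -ps. Rps4l, which RefSeq lists as a transcribed pseudogene, lacks that mark and was kept. Symbols starting with Mrpl or Mrps and a digit made up the mitochondrial set. This gave 49 cytosolic and 76 mitochondrial genes of the 18193 named on the array, each read by the brightest probe set that names that gene alone. The labels describe both samples as Pik3caTg, a transgene of the catalytic subunit of phosphoinositide 3-kinase expressed in hepatocytes, and as either Kdm3aWT or Kdm3aKO. No mouse without the transgene was compared. The labels name the Kdm3a allele only as a knockout, with no cell type, and give neither the age nor the number of animals behind an array. Each genotype had 1 Affymetrix array, so no test was possible, no value has an error between animals, and all statements describe these 2 arrays. Values are probe-set signals in arbitrary units, and differences are log2 ratios of the knockout over the wild-type signal. Pairs of signals give the wild-type array first and the knockout array second.

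The cytosolic ribosome translates nuclear-encoded messages, and its 2 subunits are built in the nucleolus from ribosomal RNA and proteins imported from the cytosol. The mitochondrial ribosome translates the few messages of the mitochondrial genome, which encode core subunits of the respiratory chain. Its proteins are all encoded in the nucleus, and many have no counterpart in the cytosolic ribosome. Most cytosolic ribosomal protein messages start with a 5′ terminal oligopyrimidine tract, an unbroken run of C and T bases, through which signalling from phosphoinositide 3-kinase by way of mTORC1 controls their translation. Array signals measure message level and not translation.

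The windows below show this start for 7 cytosolic and 5 mitochondrial members named in the results, chosen to include long and short runs in both sets. Each runs from 10 bases before to 20 bases after the first transcript start in RefSeq, build GRCm38.p6, read 5′ to 3′ on the gene's strand, with the longest run of C and T in capitals.
Rpl35 (chr2:39005112-39005141, minus strand): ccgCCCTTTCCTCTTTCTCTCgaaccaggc
Rpl7a (chr2:26910797-26910826, plus strand): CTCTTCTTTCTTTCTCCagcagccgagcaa
Rpl14 (chr9:120571507-120571536, plus strand): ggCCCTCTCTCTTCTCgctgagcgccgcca
Rplp2 (chr7:141447641-141447670, plus strand): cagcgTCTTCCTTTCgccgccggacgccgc
Rps6 (chr4:86857348-86857377, minus strand): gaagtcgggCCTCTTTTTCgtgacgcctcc
Rps19 (chr7:24884582-24884611, plus strand): aaTCTCgcgagactcgacgcccgacttgtg
Rps3a1 (chr3:86142649-86142678, minus strand): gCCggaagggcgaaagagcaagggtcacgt
Mrpl12 (chr11:120484627-120484656, plus strand): gCCTCCTCCCggatagagcgtcgcttccgc
Mrpl47 (chr3:32736736-32736765, minus strand): cgacactgtgggTCTCCattagaaacatgg
Mrpl18 (chr17:12916072-12916101, minus strand): agCTTTacccacagttaacatggctgcgac
Mrps16 (chr14:20393471-20393500, minus strand): aggcaccatggTCCagctcagtgagtgcgc
Mrps18a (chr17:46110994-46111023, plus strand): acacgcggtcaggtgcgTTCCaagatggcg
The run is 18 bases in Rpl35, 17 in Rpl7a, 14 in Rpl14 and 10 in Rplp2 and Rps6, but 4 in Rps19 and 2 in Rps3a1. It is 9 bases in Mrpl12, 5 in Mrpl47, 4 in Mrpl18 and Mrps18a and 3 in Mrps16. Over the 43 cytosolic members with a promoter in the table, 16 (37.2%) held a run of at least 8 bases in this window. Of 67 mitochondrial members 6 (8.96%) did, and 11.2% of all 27025 promoters did. The median longest run was 7 bases in the cytosolic set, 5 in the mitochondrial set and 4 over all promoters. RefSeq starts can differ from the start used in liver, so a short run here does not show that a message lacks the tract. Nor does a long run show that a message has it, because the run can lie anywhere in the window. That of Mrpl12 lies wholly before the RefSeq start.

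Kdm3a was the check of the labels: its signals were 720 and 61.6, so the knockout array had 8.56% of the wild-type signal. The position of its single probe set relative to the deleted part is not given in the sources used here. The liver samples also differed in markers of their cell types. Of the hepatocyte markers, 11 of 11 had a ratio above 0, with summed signals of 366270 and 507459. The knockout array was lower by 2-fold or more for 9 of 13 markers of stellate cells and fibroblasts (summed signals of 47532 and 22099) and for 9 of 10 cholangiocyte markers (32866 and 13411). For macrophages, 9 of 18 markers were that much lower and 3 that much higher (82289 and 50519). Over all genes with a ratio, 48.8% were above 0, 8.14% were at least 2-fold lower and 3.84% at least 2-fold higher. Most of both cholangiocyte sums came from the keratins Krt8 (13288 and 6091) and Krt18 (13344 and 6328), so those sums mostly follow these keratins and not the whole list. These are bulk samples, so fewer cells of a type and less RNA per cell cannot be told apart, and the part of cell composition in the ratios below was not tested. The signal of 3′ over 5′ control probe sets was 1.85 and 1.99 for Actb and 0.701 and 0.654 for Gapdh.

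Under the deposited scaling, the mitochondrial set was slightly higher in the knockout array and the cytosolic set was at the same level on both. Of 76 mitochondrial members, 61 had a ratio above 0 and 15 below, with a median log2 ratio of 0.20, which is 1.15-fold. Of the 47 cytosolic members with a ratio, 24 were above 0 and 23 below, and the median was 0.01. The 2 other cytosolic members, Rpl3l and Rps16, lay below the floor on both arrays and have no ratio; the floor is 46.5, the signal that 40% of all values lie below. Over all 14127 genes with a ratio, 48.8% were above 0 and the median was -0.01. The mitochondrial median exceeded the cytosolic median by 0.20, and 4 of 47 cytosolic members lay above the mitochondrial median. The scaling of the arrays moves both medians. The mitochondrial median stayed above that of all genes by 0.21 to 0.23 under the deposited scaling and 5 others. The cytosolic median was 0.01 to 0.02 above that of all genes under 4 of these, but 0.21 below it after quantile normalization and 0.18 below it after loess.

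**Figure D1:**
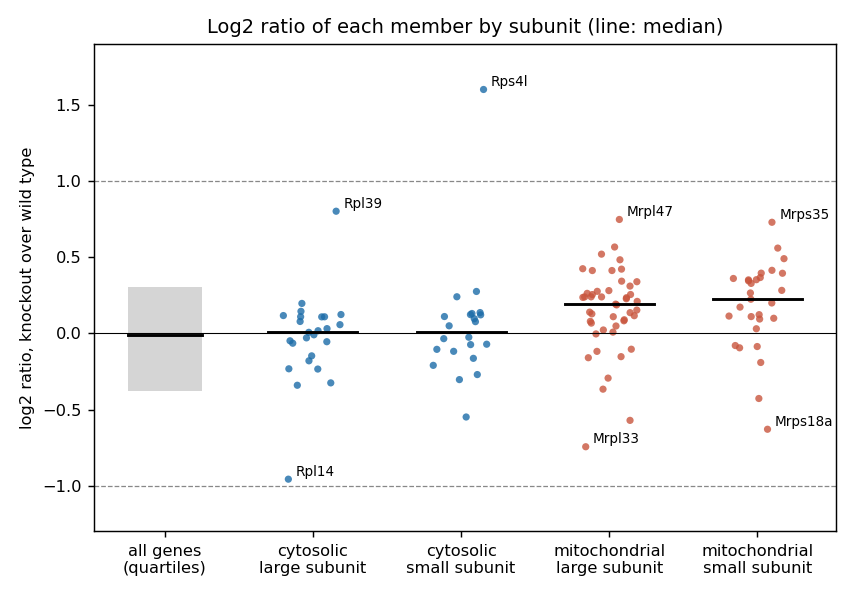
Log2 ratio of knockout over wild-type signal (y axis) for each member, by ribosome and subunit, with a black line at each median; the grey bar spans the quartiles of all 14127 genes with a ratio, and dashed lines mark 2-fold. The mitochondrial medians of 0.19 and 0.22 lie above the cytosolic medians of 0.01 and 0.01, and Rps4l is the single point past 2-fold.

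**Figure D2:**
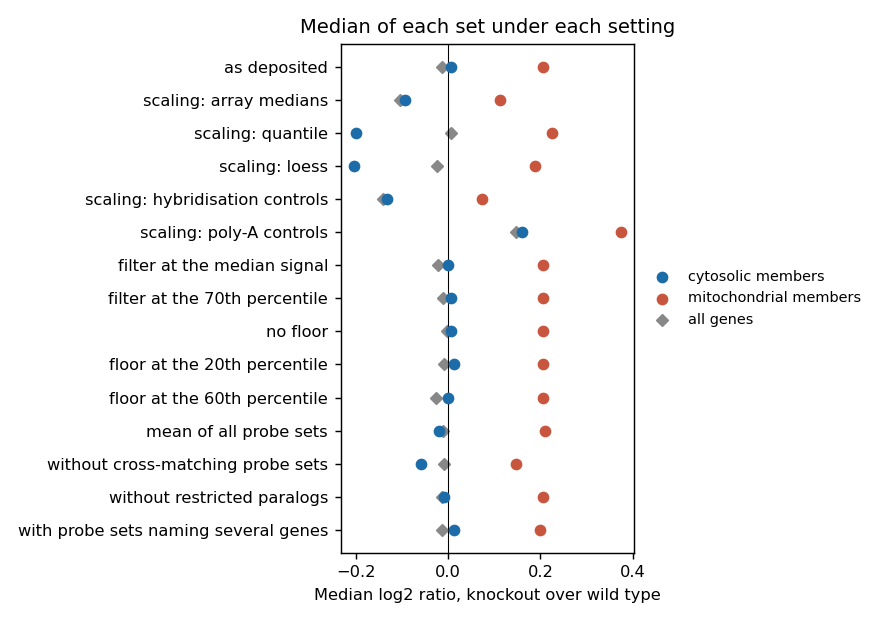
Median log2 ratio (x axis) of cytosolic members, mitochondrial members and all genes under the deposited values and 14 other settings (y axis). The mitochondrial median lies to the right of the cytosolic median in each setting, and the cytosolic median separates from that of all genes after quantile normalization and loess.

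Differences were small in both sets. A 2-fold difference was reached by 1 of 47 cytosolic and 0 of 76 mitochondrial members, against 12.0% of all genes with a ratio (3.84% higher and 8.14% lower). A 1.5-fold difference was reached by 3 cytosolic and 4 mitochondrial members, against 29.0% of all genes. A log2 ratio of 0.32 or more was seen for 22 mitochondrial members and 2 cytosolic ones, against 24.0% of all genes. A ratio of -0.32 or less was seen for 5 mitochondrial and 4 cytosolic members, against 27.8%. Between these bounds lay 41 of 47 cytosolic (87.2%) and 49 of 76 mitochondrial members (64.5%), while 51.7% of all genes lay outside them. The interquartile range of the log2 ratio was 0.25 in the cytosolic set, 0.28 in the mitochondrial set and 0.68 over all genes, many of which are dim. All 76 mitochondrial members and 46 of the 49 cytosolic ones passed a filter at the median signal of all probe sets, 73.7.

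**Figure D3:**
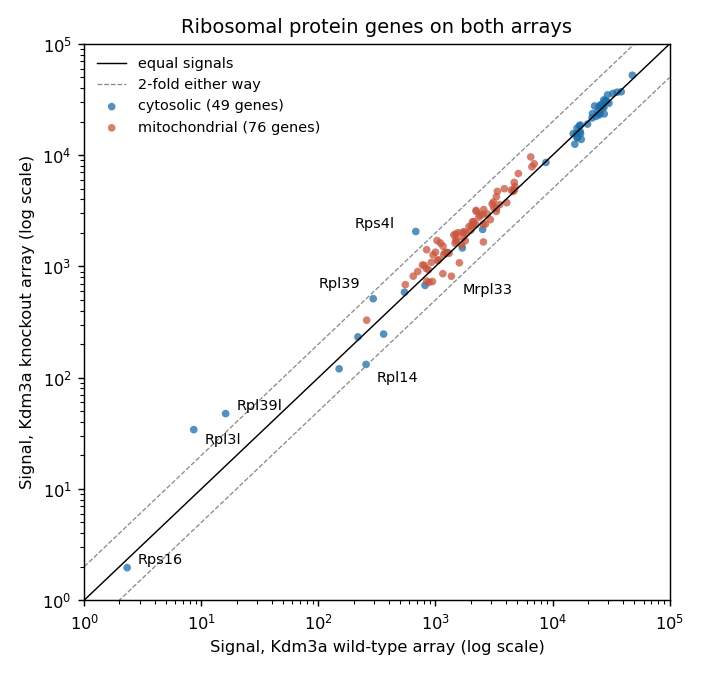
Signal on the knockout array (y axis) against the wild-type array (x axis), both on a log scale, for the 49 cytosolic and 76 mitochondrial members; the solid line marks equal signals and dashed lines 2-fold. Most points lie near the solid line, Rps4l lies above the upper dashed line, and Rpl3l, Rpl39l and Rps16 sit at the dim end, where signals are at or near the floor.

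In the large cytosolic subunit, 25 members with a ratio had a median of 0.01, with 13 above 0 and 12 below. Rpl14, a surface protein of the large subunit, had signals of 255 and 132, a log2 ratio of -0.96. The next lowest were Rpl35 (17585 and 13888, -0.34), which lies near the exit of the nascent chain, and Rpl12 (150 and 120, -0.32), a protein of the stalk base. The 5 probe sets of Rpl35 above the floor on both arrays lay between -0.36 and -0.27; the sole one without a cross-matching name, below the floor in the wild type, stood at 0.46. The stalk itself recruits the elongation factors. Its anchor Rplp0 had signals of 27654 and 23512 (-0.23), and Rplp2, one of the proteins it carries, had 26653 and 26784 (0.01). Rplp0 was thus 1.18-fold lower while its partner was equal on both arrays, a gap smaller than the SD of 0.32 between probe sets of the same cytosolic gene.

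The highest ratio in the large subunit was that of Rpl39, a short protein of the exit tunnel, with 294 and 513 (0.80). Rpl13a, which is released from the ribosome to silence inflammatory messages, followed with 27418 and 31424 (0.20), but its 3 other probe sets were below 0, at -0.07, -0.41 and -0.70. Rpl7a had 25501 and 28195 (0.14) and Rpl37a 24779 and 26998 (0.12). Rpl11, which with Rpl5 carries 5S ribosomal RNA and binds Mdm2 when ribosome assembly fails, had 17308 and 18666 (0.11). The ratios of Rpl13a, Rpl7a, Rpl37a and Rpl11 turned negative after quantile normalization and after loess.

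In the small cytosolic subunit, 22 members had a ratio and a median of 0.01, with 11 on each side of 0. Rps27 was lowest, at 361 and 247 (-0.55). Rps19, which is mutated in Diamond-Blackfan anaemia, had 15505 and 12564 (-0.30). Rps19bp1 (815 and 675, -0.27) fits the symbol rule but encodes a binding partner of Rps19 and not a ribosomal protein. Rps6, the substrate of S6 kinase downstream of mTORC1, had 1696 and 1467 (-0.21). At the other end were Rps2, at the entry of the message channel, with 29506 and 34857 (0.24), and Rps3a1 with 28163 and 30962 (0.14). Both were below 0 after quantile normalization and after loess.

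Rps4l was the 1 member past 2-fold, with a signal of 679 and 2061, 3.03-fold higher (log2 ratio 1.6). It was 1.47 to 1.77 under the other scalings. RefSeq lists Rps4l as a transcribed pseudogene, and it is a close copy of Rps4x, the X-linked gene of the ribosomal protein itself. Rps4x had 26269 and 28581 (0.12). Their sequences were not compared here, so how far their probe sets read each other is uncertain.

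Other members are paralogs that can stand in for a standard subunit in some tissues or states. Rps27l, a p53-regulated paralog of Rps27, had signals of 22886 and 27698 (0.28), and its 3 probe sets lay between 0.19 and 0.28. All 3 have a cross-matching name, and whether they also read Rps27 was not tested. Rps27 stood at -0.55 by 1 dim probe set (361 and 247). Rpl22l1 had 8784 and 8607 (-0.03) and Rpl22 21934 and 23663 (0.11), although the 3 probe sets of Rpl22 ranged from -0.98 to 0.11. Rpl7l1, a paralog with a role in ribosome assembly, had 1264 and 1335 (0.08), and Rpl7 had 19905 and 19035 (-0.06). Rpl39l, a testis-enriched paralog of Rpl39, was at 16.1 and 47.5, so it passed the floor on 1 array and by little. Rpl3l, which is restricted to striated muscle, had signals of 8.62 and 34.1, below the floor on both.

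For some cytosolic members a brighter probe set names the gene along with its pseudogenes, and for Rpl14, Rpl39 and Rps6 it stood on the other side of 0. Ribosomal protein genes have many processed pseudogenes, and 101 probe sets name 1 member symbol together with pseudogenes, predicted genes or small RNA genes. For Rpl14, such a probe set had 13929 and 16188, a log2 ratio of 0.22 in place of -0.96. For Rpl39 it had 39942 and 39674, or -0.01 in place of 0.80. For Rps6 it had 36823 and 42067, or 0.19 in place of -0.21, and for Rps16, which has no usable probe set of its own, it had 32937 and 35857, or 0.12. Rpl12 kept its side by such a probe set (18036 and 16391, -0.14 in place of -0.32), as did Rps2 (0.25 in place of 0.24). Rps4l, Rps27 and Rpl35 had no such probe set. A probe set shared with pseudogenes may read their RNA too, which was not tested.

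Another 24 cytosolic genes were read solely by such shared probe sets and are not members. All 24 lay within 2-fold, from -0.24 for Rpl21 to 0.26 for Rpl3, with 13 above 0 and a median of 0.01. Among them were Rpl5 (27309 and 29793, 0.13), the partner of Rpl11, and Rplp1 (29424 and 28224, -0.06), the partner of Rplp2 in the stalk. Rpl10, a late-joining protein of the large subunit, had 31781 and 34766 (0.13), and Rpl26, a regulator of p53 translation, had 34003 and 32078 (-0.08). With these genes added and members also read by the shared probe set where it was brighter, which gives Rps16 a ratio, 72 cytosolic genes had a median of 0.01 and 39 ratios above 0. Of 88 protein-coding RefSeq genes that fit the cytosolic rule, 48 were members, as against 76 of 78 for the mitochondrial rule.

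In the large mitochondrial subunit, 38 of 47 members had a ratio above 0, with a median of 0.19. The highest was Mrpl47, with 841 and 1413 (0.75), although the other probe set of the gene above the floor on both arrays stood at -0.21. Mrpl39 had 6512 and 9647 (0.57), and its 2 probe sets were alike at 0.57 and 0.58. Mrpl18, which helps to bring 5S ribosomal RNA into mitochondria, had 2224 and 3190 (0.52). Mrpl15 had 3380 and 4725 (0.48), with its 6 probe sets above the floor between 0.04 and 0.50. These 4 genes were between 1.40-fold and 1.68-fold higher in the knockout array, and their ratios stayed above 0 under each scaling.

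The mitochondrial stalk recruits translation factors as its cytosolic counterpart does. Its anchor Mrpl10 had 1728 and 1811 (0.07). Mrpl12, the stalk protein that also binds the mitochondrial RNA polymerase, had 6969 and 8362 (0.26). Mrpl12 stayed above 0 in all 14 alternatives, from 0.13 to 0.43, while Mrpl10 turned negative in 2. Mrpl58, a release factor built into the ribosome, had 2351 and 2775 (0.24).

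The 9 large-subunit members below 0 included Mrpl33, with 1368 and 817 (-0.74). Mrpl54 had 1601 and 1077 (-0.57), and its second probe set, close to the floor in the wild type (47.0 and 85.4), stood at 0.86. Mrpl38 had 943 and 732 (-0.37), and its 2 dimmer probe sets stood at -0.35 and 0.81. Mrpl19 had 882 and 720 (-0.29), with all 3 probe sets above the floor below 0. Mrpl33 was read by 1 probe set above the floor.

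In the small mitochondrial subunit, which here holds the members with an Mrps symbol, 23 of 29 were above 0 and the median was 0.22. Mrps35 was highest, with 1031 and 1710 (0.73). Mrps31 followed with 1101 and 1624 (0.56), then Mrps16, a protein kept from the bacterial ribosome, with 2230 and 3133 (0.49), and Mrps2, also kept from bacteria, with 1436 and 1913 (0.41). Mrps22, mutated in a childhood mitochondrial disease, had 1489 and 1959 (0.40). Mrps36 (1160 and 1524, 0.39) is counted here by its symbol but is now known as a subunit of the oxoglutarate dehydrogenase complex.

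The 3 forms of Mrps18 went both ways. Mrps18a, which sits in the large subunit but is counted here by its symbol, had 2567 and 1660 (-0.63). Mrps18b had 1504 and 1757 (0.22), and Mrps18c 3875 and 4997 (0.37). Each form was read by 1 probe set above the floor, and each kept its sign under every scaling. The other low members were Mrps6 (1157 and 860, -0.43, with both probe sets below 0), Mrps23 (842 and 738, -0.19) and Mrps28 (2561 and 2398, -0.09). The 3 probe sets of Mrps23 ranged from -0.48 to 0.27.

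Agreement between probe sets of the same gene sets the limit on single members. Among genes with several probe sets above the floor, 9 of 20 cytosolic and 23 of 37 mitochondrial members had them all on the same side of 0, as had 2883 of 5208 genes overall. The SD between probe sets of a gene was 0.32 in the cytosolic set, 0.33 in the mitochondrial set and 0.43 over all genes. Most single ratios in both sets were smaller than this. The brightest probe set had a name ending used for probes that can match several transcripts in 33 of 49 cytosolic and 31 of 76 mitochondrial members. Without such probe sets the medians were -0.06 over 24 cytosolic and 0.15 over 62 mitochondrial members, a difference of 0.21.

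Signal strength mattered for the comparison, because the median ratio of all genes varied with it. Genes passing the filter were ranked by mean signal and divided into 10 groups of equal size, from 1 (dimmest) to 10 (brightest). The all-gene median was -0.14 in group 4 and 0.19 in group 10. Of the 46 cytosolic members passing the filter, 35 lay in group 10, where their median was 0.01 and 3 of 35 exceeded the group's median. The 9 mitochondrial members of group 10 had a median of 0.24, and 5 of them exceeded the all-gene median of 0.19. In group 9, 25 mitochondrial members had a median of 0.21 against 0.04 for all genes, and in group 8, 22 had 0.16 against -0.02. Over all 10 groups, 56 of 76 mitochondrial and 8 of 46 cytosolic members were above the median of their own group. The 2 medians differed by 0.23 in group 10 and by 0.20 in the whole comparison. The group 10 value rests on 9 mitochondrial members, and the part of signal strength in the whole comparison was not tested.

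**Figure D4:**
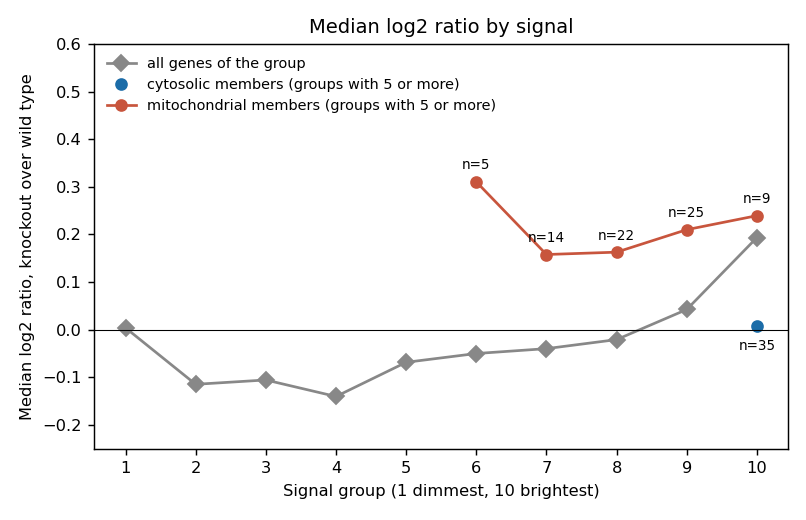
Median log2 ratio (y axis) by signal group (x axis, 1 dimmest to 10 brightest) for all genes passing the filter and for members, shown for groups with at least 5 members of a set and labelled with their number. Mitochondrial medians lie above the all-gene line in each group shown, and the cytosolic median of 0.01 lies below the all-gene value of 0.19 in group 10.

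Other lists of mitochondrial translation genes also had medians above 0 under the deposited scaling. Scaling on hybridisation controls lowers every ratio by 0.13 and scaling on poly-A controls raises it by 0.17, so a list median nearer to 0 than these shifts has no settled direction. Quantile normalization and loess were not run for these lists. Of 24 genes of mitochondrial ribosome assembly and ribosomal RNA, 19 were above 0, 0 reached 2-fold and the median was 0.26. Mrm2, a ribosomal RNA methyltransferase, was highest (183 and 336, 0.87) and Rpusd4, a pseudouridine synthase, lowest (423 and 271, -0.64). Next in from either end were Mtg2 (0.68) and Mrm1 (-0.54). Of 12 mitochondrial translation factors, 9 were above 0, with a median of 0.27. The elongation factor Gfm1 led (2051 and 2965, 0.53), and the initiation factor Mtif3 was lowest (637 and 534, -0.26). Tsfm, another elongation factor, had 0.45 and Guf1 -0.07. Of 19 mitochondrial aminoacyl-tRNA synthetases and related genes, 13 were above 0 and the median was 0.13. The synthetases Aars2 (157 and 397, 1.34) and Vars2 (136 and 330, 1.28) were past 2-fold, both at low signals, and Tars2 (-0.50) and Ears2 (-0.39) were lowest.

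Mitochondrial ribosomal proteins under other symbols had 3 of 4 ratios above 0 and a median of 0.39, led by Gadd45gip1 (982 and 1488, 0.60), with Dap3 lowest (2634 and 2510, -0.07) and Ptcd3 (0.41) and Chchd1 (0.38) between. The respiratory chain and ATP synthase genes, many of which have mitochondrially encoded partners made by this ribosome, had 54 of 55 above 0 and a median of 0.44. Most of them are as bright as signal group 10, where the median of all genes was itself 0.19. Cox7c (62.8 and 178, 1.5) was past 2-fold at a low signal, and Ndufb10 (4768 and 9001, 0.92) came next, while Ndufa2 (-0.04) and Ndufa8 (0.12) were lowest. The hepatocyte markers named above were also higher, and the part of cell composition in these lists was not tested.

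**Figure D5:**
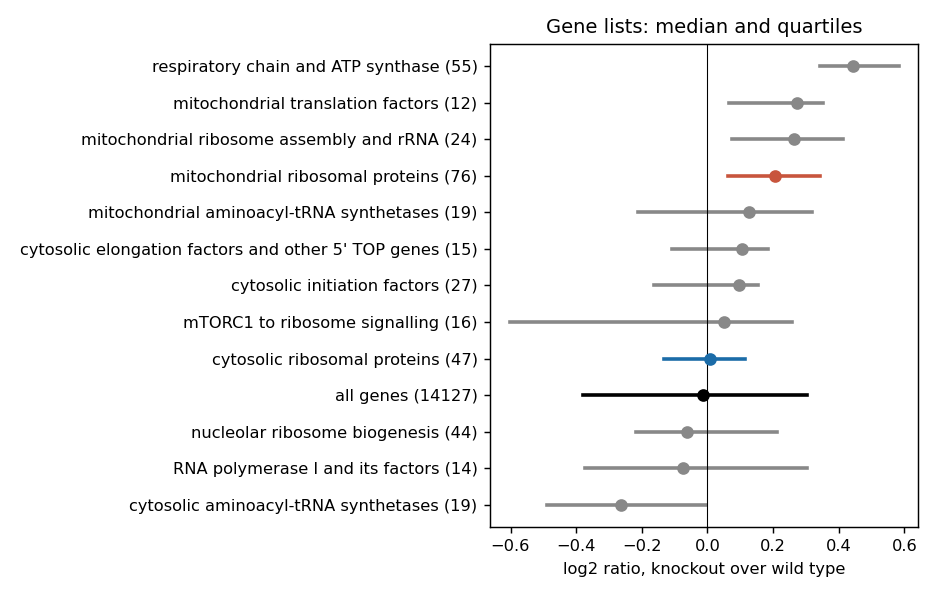
Median log2 ratio (dots) with lower and upper quartile (bars) of each gene list on the x axis, with the number of genes with a ratio in brackets; lists with fewer than 5 genes are left out. Under the deposited scaling, the mitochondrial ribosomal proteins (0.20) stand with the mitochondrial assembly and translation lists. The cytosolic ribosomal proteins (0.01) stand beside all genes under that scaling.

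Lists of genes that build or serve the cytosolic ribosome had medians from -0.26 to 0.10. Of 44 nucleolar biogenesis genes, 20 were above 0 and the median was -0.06. Tcof1, which promotes transcription of ribosomal DNA, was the 1 gene at least 2-fold lower (174 and 61.1, -1.51), and Nob1, a nuclease that matures 18S RNA, was highest (259 and 442, 0.77). Nhp2 had -0.56 and Imp3 0.51. RNA polymerase I and its factors had 6 of 14 above 0 and a median of -0.08. The initiation factor subunit Taf1c (166 and 82.9, -1.0) and the catalytic subunit Polr1a (273 and 138, -0.99) were lowest, both just within 2-fold, and Cd3eap (0.63) and Ubtf (0.37) highest. Cytosolic aminoacyl-tRNA synthetases had 5 of 19 above 0 and a median of -0.26, with Wars (341 and 197, -0.79) lowest and Tars (2336 and 2870, 0.30) highest, followed by Vars (-0.67) and Farsa (0.25).

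Cytosolic initiation factors had 15 of 27 above 0 and a median of 0.10, from Eif6 (4122 and 2564, -0.68), which keeps free large subunits apart, to the helicase Eif4a2 (13243 and 21720, 0.71). Eif2b3 had 0.60 and Eif3a -0.30. Elongation factors and other genes known for the oligopyrimidine start had 9 of 15 above 0 and a median of 0.10. Most of them are as bright as signal group 10, where the median of all genes was 0.19. In this list, Eef1a1 (45901 and 55372, 0.27) was highest and Nap1l1 (5637 and 3093, -0.87) lowest, with Btf3 at 0.22 and Eif3f at -0.35. Signalling genes from mTORC1 to the ribosome had 9 of 16 above 0 and a median of 0.05, with Myc (608 and 206, -1.56), an activator of ribosomal genes, at least 2-fold lower. Mycn (99.4 and 209, 1.07) was at least 2-fold higher at a low signal. Mtor itself had 2183 and 1178 (-0.89) and Eif4ebp2, a brake on initiation, had 0.71.

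The array also carries control probe sets for 18S ribosomal RNA, the RNA of the small cytosolic subunit. Their signals were 9476 and 17184 for the 3′ part, 12038 and 22736 for the middle and 20888 and 36270 for the 5′ part. All 3 were thus higher in the knockout array, by 1.74-fold to 1.89-fold, while the messages of the small-subunit proteins had a median of 0.01. How much 18S RNA enters a labelled sample depends on how the RNA is primed, which the labels do not describe, so these signals are not a measure of ribosome number.

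Promoters of the 2 sets were searched for 4 short motifs on both strands, in the 300 bases from 250 before to 50 after the RefSeq start. CCGGAAGT, the core of ETS-family sites such as that of GABPA, was in 9 of 43 cytosolic and 11 of 67 mitochondrial promoters, 20.9% and 16.4%, against 4.0% of all promoters. GCGCATGC, part of the NRF1 site, was in 1 of 43 cytosolic (2.33%) and 8 of 67 mitochondrial promoters (11.9%), against 2.80%. AAGATGGC, a YY1 core, was in 3 (6.98%) and 12 (17.9%), against 2.88%. CACGTG, the E-box bound by Myc, was in 3 (6.98%) and 5 (7.46%), against 7.24%. GABPA and NRF1 are known as regulators of nuclear genes for mitochondrial proteins. The windows below show where these motifs lie, in capitals, in members at both ends of the mitochondrial range.
Mrpl18, ETS motif (chr17:12916312-12916341, minus strand): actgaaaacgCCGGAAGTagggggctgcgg
Mrpl33, ETS motif (chr5:31613937-31613966, plus strand): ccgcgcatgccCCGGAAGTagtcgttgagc
Mrpl39, NRF1 motif (chr16:84735351-84735380, minus strand): caaggagaggcGCGCATGCgcccccgcgtg
Mrps18a, YY1 motif (chr17:46111004-46111033, plus strand): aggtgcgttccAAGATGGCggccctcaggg
Mrpl18 and Mrps18a had ratios of 0.52 and -0.63, and Mrpl33 and Mrpl39 of -0.74 and 0.57, and Mrpl33 also holds the NRF1 motif, so members with a motif stood on both sides of 0. Mitochondrial members with the ETS motif had a median of 0.34 (11 genes) and those without it 0.22 (56 genes). For the NRF1 motif the medians were 0.21 (8 genes) and 0.24 (59 genes), and for the YY1 motif 0.23 (12 genes) and 0.23 (55 genes). Cytosolic members with the ETS motif had a median of -0.05 (9 genes), against 0.01 for the 32 without. Cytosolic members with a run of at least 8 C and T bases in the window around the start had a median of -0.04 (16 genes), against 0.02 for the 25 without. These are descriptions of letters in a window, and no match shows that a factor binds there.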

How the data were processed

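Total RNA of liver was labelled with biotin by the standard Affymetrix procedure, starting from 250 ng, per the labels' protocols. The deposited values are linear probe-set intensity values, and the submitters' processing notes name MAS5. Neither its settings nor its detection calls are described in the sources used. Without the highest and lowest 2% of values, both arrays averaged 500.004, a common scale. Of 45101 probe sets, 64 were controls, 34945 named 1 gene in the platform annotation, 932 several and 9160 none.

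Values below the floor of 46.5 were raised to it, and genes at or below it on both arrays have no ratio. The size counted as a difference was 2-fold, with 1.5-fold and a log2 ratio of 0.32 as alternatives. No test could be run on single arrays. Members, lists, markers and tests were chosen with earlier results of these data known. Named members were the 4 highest and 4 lowest ratios of each subunit, stalk proteins, paralog pairs (with Rpl3, Rpl10 and Rpl26), Rps6, Rpl5 and Rpl11, and members past 2-fold. Subunits were assigned by symbol. Of other lists, the 2 genes at each end were named. Genes named beyond this rule were Mrpl58, Mrps22, Mrps36, Rps16 and Rpl21, chosen after their values were seen. Median ratios of the other marker lists were -0.32 (endothelial), -0.91 (T or NK), 0.27 (B or plasma), -0.44 (neutrophil) and -0.09 (erythroid). Cytosolic ribosomal proteins under other symbols were Fau (0.24) and Rpsa (0.09). Alternatives were 5 scalings, 2 filters, 3 floors, averaging of probe sets, leaving out cross-matching probe sets by name ending and leaving out paralogs. Adding shared probe sets and the brightest signal group were chosen after seeing the data. Calculations used Python 3.11.15, pandas 2.3.3 and statsmodels 0.14.6, for loess with a span of 0.3, and were tested on simulated data. Sequences and gene types are from RefSeq, assembly GRCm38.p6.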

Additional observations from a re-analysis of the deposited data

How the results depend on the processing

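With 1 array per genotype, array and genotype cannot be told apart, and no left-out replicate could be tried. No paired analysis was possible because each group holds 1 sample and the labels give no shared replicate number. A median was counted as moved beyond 0.153 (cytosolic), 0.120 (mitochondrial) or 0.194 (their difference). These bounds scale the SD between probe sets of a gene, over all genes, by the square root of the number of members. Members are not replicates of a genotype, so the bounds only label settings and measure no error between animals. The difference of medians was above 0 in all 15 alternatives, from 0.19 to 0.42. It moved to 0.42 after quantile normalization and 0.39 after loess. The cytosolic median moved to -0.20 after quantile normalization, -0.20 after loess and 0.16 with scaling on poly-A controls. The mitochondrial median moved to 0.074 with scaling on hybridisation controls and 0.37 on poly-A controls, settings that put the median of all genes at -0.14 and 0.15. The cytosolic genes above 0 numbered 6 after quantile normalization, 6 after loess, 7 with hybridisation controls, 37 with poly-A controls, 10 of 24 without cross-matching probe sets and 39 of 72 with shared probe sets. The mitochondrial genes above 0 numbered 45 to 69. Cytosolic genes at least 2-fold different numbered 2 with array medians, 2 with hybridisation controls, 2 without cross-matching probe sets, 3 without a floor, 3 with the floor at the 20th percentile and 0 without paralogs. At 1.5-fold there were 3 cytosolic and 4 mitochondrial genes, and at a log2 ratio of 0.32 in size 6 and 27. The cause of these shifts was not tested. Of 44 named members, 25 kept their sign in every alternative that gave a value and 19 did not. Low signal limits the values of Rpl14, Rpl39, Rpl12 and Rps27.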
